A study of Homo sapiens with 4 samples.

Results

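The genes described here are the splicing factors and heterogeneous nuclear ribonucleoproteins (hnRNPs) measured in Z138 cells with and without hairpins against SOX11. They were chosen by symbol, with earlier results of these data known. The rule took every gene whose name begins with SRSF, SF3A, SF3B or PRPF and a digit, or with HNRNP, SNRP or U2AF. Of the 19775 genes with a single symbol on the array 67 met it. The 67 comprised 10 SR proteins (SRSF), 21 hnRNPs, 12 factors of U2 snRNP and 3′ splice site recognition (SF3A, SF3B and U2AF), 13 SNRP genes and 11 PRP factors (PRPF). The names also took in the transcribed pseudogene HNRNPA3P1 and the long non-coding divergent transcripts HNRNPD-DT and SNRPF-DT, which encode no splicing protein. The members had 187 probe sets with a single symbol. A further 25 probe sets that name such a gene together with others were not used, and SRSF2 had only probe sets of that kind.

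Z138 is an established cell line of mantle cell lymphoma, which arises from B cells and commonly expresses the transcription factor SOX11. All cells carried a stable lentiviral short hairpin RNA. Scramble hairpins gave the 2 control arrays, shControl.1 and shControl.2, and SOX11 was targeted on the other 2, named shSOX11.1 and shSOX11.3. No construct was measured more than once, and the labels do not speak of separate cultures of 1 construct, so the p-values here rest on how far these 4 samples scatter. That scatter may be technical or may come from differences between hairpins, which cannot be told apart. The tests treat the 2 SOX11 hairpins as replicates, so an effect of 1 hairpin alone cannot be told from noise. Total RNA was hybridised to Affymetrix arrays in 1 colour, and the number of arrays limits the precision.

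Splicing removes introns from pre-mRNA on the spliceosome, which is built from small nuclear ribonucleoproteins (snRNPs). Each is an RNA with a ring of Sm or Sm-like (LSM) proteins and its own particle-specific proteins. U2AF and the SF3A and SF3B complexes define the branch point and the 3′ splice site, and PRP factors act in the tri-snRNP and in the catalytic steps. SR proteins mostly favour the use of nearby exons, whereas hnRNPs often oppose it, and in B cells such factors set isoforms of surface receptors and of immunoglobulin heavy chains. Many SR and hnRNP genes also make transcripts with a retained intron or a poison exon, so probe sets at different places of such a gene can read different RNAs.

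The signal of SOX11 was 797 and 787 in control cells and 335 and 339 with SOX11 hairpins, 42.5% of control, and all 3 of its probe sets were lower. The B-cell genes MS4A1 (between 6823 and 8358) and CD79B (between 535 and 992) and the lymphoma gene CCND1 (between 8610 and 10317) were well over the signal threshold of 24.8 on all 4 arrays. The 5 measured B-cell markers summed to 11439 and 10844 in control cells and to 8323 and 9759 with SOX11 hairpins. PAX5 was at 1845 and 1666 against 646 and 1450, and the dim CD22 at 48.2 and 67 against 39.8 and 4.94. These, MS4A1 and CD79B were lower without overlap, and CD79A overlapped, at 272 and 341 against 279 and 220. The part of these B-cell markers in the results was not tested. Of 7 T and NK cell markers 2 lay above the threshold on at least 2 arrays. The summed signal of all 7 was 265 and 289 in control cells and 207 and 251 with SOX11 hairpins. Most of it was CD3G, at 160 and 207 against 129 and 203. The 6 myeloid markers summed to 92.2 and 83 against 126 and 115. CSF3R, at 8.51 and 7.67 against 30.6 and 30.3, and CSF1R, at 15.1 and 8.98 against 25.7 and 28.9, were higher. CD14, at 3.11 and 5.66 against 1.97 and 2.65, and LYZ, at 12.7 and 8.84 against 4.93 and 7.17, were lower without overlap. Both were under the threshold on every array, and ITGAM and MPO overlapped. Of 8 epithelial and stromal markers 5 lay above the threshold on at least 2 arrays, with sums over all 8 of 8442 and 7956 against 9007 and 7735. Most of each sum was VIM, at 7046 and 6535 against 7364 and 6377. PECAM1 was at 212 and 280 against 483 and 387, without overlap. The part of these markers in the results was not tested. The 2% trimmed mean signal was 150 on every array. The beta-actin control probe sets at the 3′ end read 11.6 times those at the 5′ end on both shControl arrays, 7.29 times on shSOX11.1 and 5.31 times on shSOX11.3. This ratio, which reflects how intact and how fully labelled the RNA was, moved with the groups, and its part in the results below was not tested. The same ratio of the GAPDH control probe sets was 0.978 and 1.06 in control cells and 1.01 and 1.03 with SOX11 hairpins, where the groups overlap. In such bulk RNA fewer cells of a type and less RNA per cell cannot be told apart.

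At their brightest probe sets most members were slightly lower with SOX11 hairpins. Over the 44 members with other kept probe sets this lean was not seen at those, except among the snRNP proteins. Each gene is represented by its brightest probe set, and values are log2 changes of MAS5 signal, shSOX11 minus shControl. Of the 63 members past the signal filter 49 were lower and 14 higher (77.8% lower), with a median log2 change of -0.17. Among all 11938 genes tested 58.1% were lower and the median was -0.06. With each array centred on its median the shares were 63.5% of the members and 47.3% of all genes. In limma, adjusted over all genes, 0 of the 63 members and 0 of the 11938 genes (0% called) passed 0.05, and the adjusted p of the members ranged from 0.307 to 0.986. At an unadjusted limma p under 0.05 there were 9 members, 7 lower and 2 higher, which is 14.3% of them, against 8.38% of all genes (4.98% lower and 3.4% higher). When every SOX11 hairpin was set against every control hairpin, 1 member, SF3A2, was at least 1.5-fold apart in all 4 pairings, on the lower side. Of all genes 2.69% were, 1.93% on the lower side and 0.762% on the higher. The groups did not overlap in 24 members on the lower side and 7 on the higher side, 49.2% in all, against 41% of all genes (24.9% lower and 16.2% higher).

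**Figure D1:**
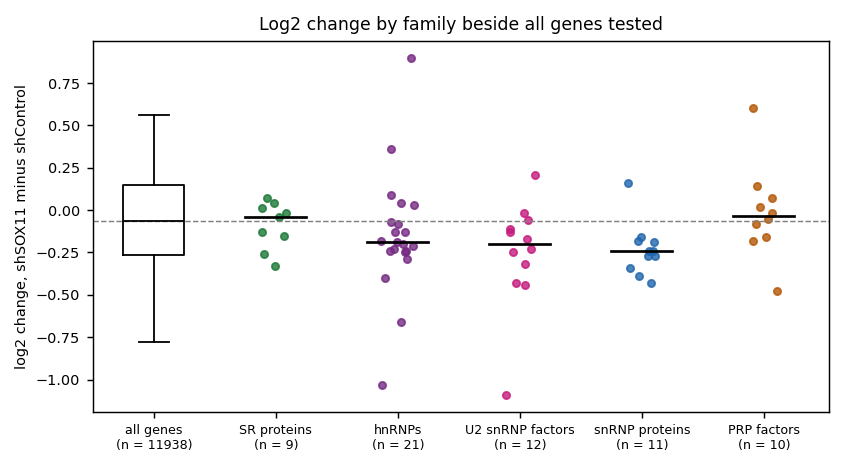
Log2 change in signal (shSOX11 minus shControl) of each tested member by family, as points with the family median as a bar, beside a box of all 11938 genes tested (median, quartiles and whiskers at the percentiles 5 and 95; the dashed line is the median of all genes, -0.06). The snRNP proteins (median -0.24), the U2 snRNP factors (-0.20) and the hnRNPs (-0.19) lie mostly under that line, and the SR proteins and PRP factors (-0.04 each) lie around it.

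The lean to lower signal was uneven between the shSOX11 arrays, and over all genes the share of lower genes was largest among the brightest. Relative to control cells the median over the members was -0.08 with hairpin shSOX11.1 and -0.19 with shSOX11.3, and over all genes it was 0 and -0.10. The typical absolute difference between the shControl arrays was 0.0985 over the members, and between the shSOX11 arrays it was 0.211. The members are bright genes, with 19 of 63 over a mean signal of 5000. Of all 295 tested genes this bright 87.1% were lower, with a median of -0.15, and of the 19 members 17 were lower, with a median of -0.19. Genes over 5000 had a median of -0.01 for shSOX11.1 and -0.28 for shSOX11.3, and the members among them -0.09 and -0.28. In the range from 500 to 2000, 15 of 20 members were lower with a median of -0.09, beside 54.4% and -0.03 for all genes. The order did not run evenly with signal, since the 3 members under 100 were all lower, with a median of -0.23, beside 59% and -0.11 for all genes that dim. Leaving out shSOX11.3 brought the median of the members to -0.08 and that of all genes to 0.

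**Figure D2:**
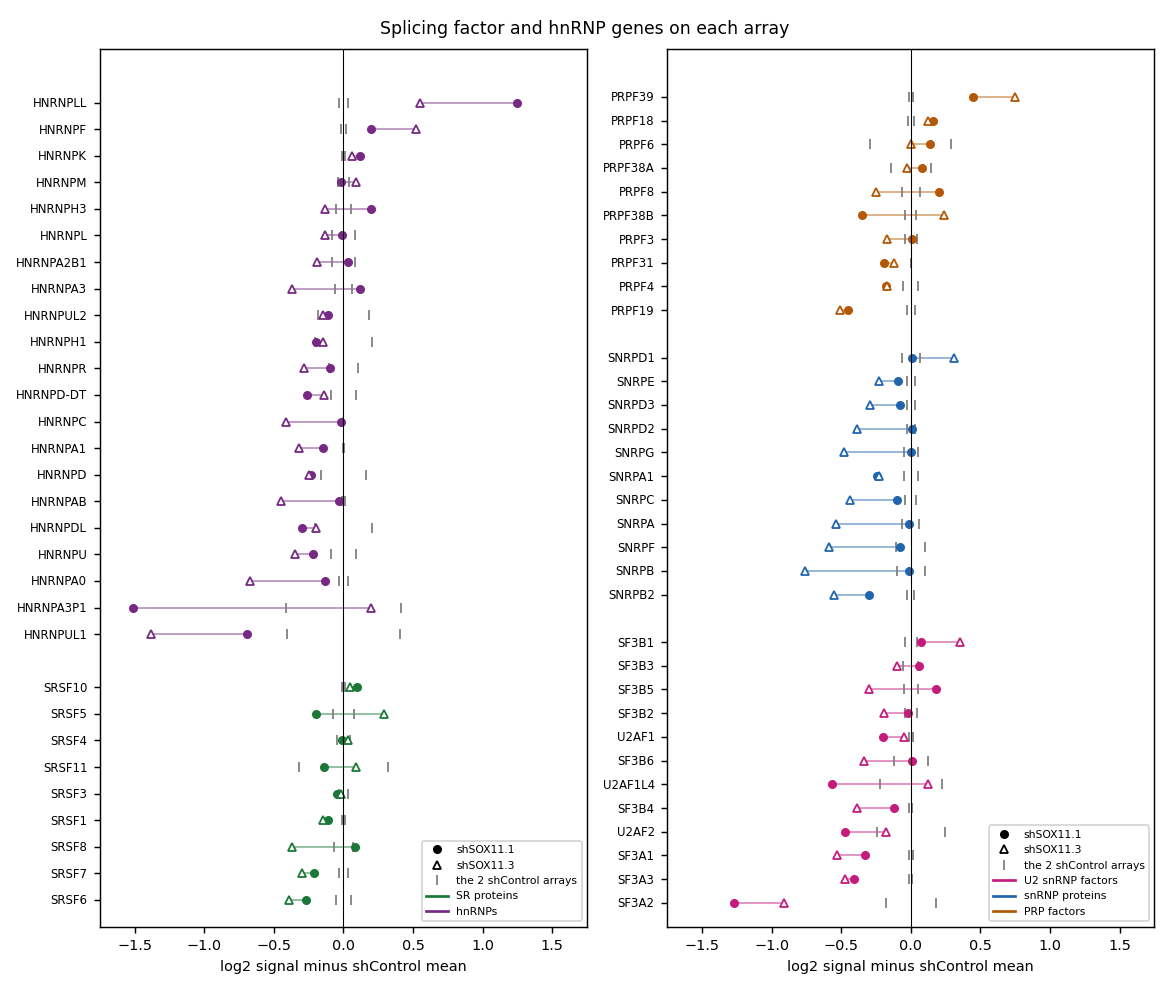
Log2 signal of all 63 tested members on shSOX11.1 (filled circles) and shSOX11.3 (open triangles) minus the mean of the shControl arrays, whose own values are the grey ticks, by family and ordered by log2 change. For the Sm proteins other than SNRPD1 the triangles lie left of the circles, as for SNRPB at -0.76 on shSOX11.3 and -0.01 on shSOX11.1, while the SF3A genes are left of 0 on both arrays.

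The factors that define the branch point and the 3′ splice site included all 3 subunits of SF3A, the complex that joins U2 snRNP to the branch point, and each of them was lower on both shSOX11 arrays. SF3A2 had a signal of 426 and 332 in control cells and 156 and 201 with SOX11 hairpins. Both shSOX11 values lay far below both controls, at 47.1% of the control level (8.55 ± 0.26 against 7.47 ± 0.26 on the log2 scale, SD, n = 2 per group). The difference of -1.09 (log2, SE 0.21) had an unadjusted limma p of 0.000719 and an adjusted p of 0.307, so it did not pass. Its second probe set was also lower, at 68.2 and 79.1 against 102 and 85.1, but by less (log2 change -0.35, SE 0.26). The _x_at suffix of that probe set marks probes that may also bind other transcripts. SF3A3 stood at 1243 and 1224 in control cells and 927 and 888 with SOX11 hairpins, with little spread within either group. That is a log2 change of -0.44 (SE 0.14, limma adjusted p = 0.474), from the only probe set it had. SF3A1 was at 940 and 957 against 754 and 655, a log2 change of -0.43 (SE 0.15, limma adjusted p = 0.519). Of its 4 probe sets 3 were lower and 1 was at 0.04.

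SF3B is the complex that holds the branch point adenosine. SF3B1, its largest subunit, was at 4371 and 4639 in control cells and 4713 and 5724 with SOX11 hairpins, so both shSOX11 values were above both controls, by a log2 change of 0.21 (SE 0.15, limma adjusted p = 0.694). Of its 5 probe sets 4 were higher, among them those at 0.60 and 0.57, and the remaining was at -0.12. U2AF1, the small subunit that reads the 3′ splice site, was at 3225 and 3300 against 2833 and 3145 (log2 change -0.13, SE 0.14). U2AF2, the large subunit that binds the polypyrimidine tract, was at 1042 and 1461 against 890 and 1091, where the groups overlap (-0.32, SE 0.20). Its other kept probe set was at 109 and 156 against 177 and 143 (0.29, SE 0.25). U2AF1L4, a paralog of U2AF1, was dim and its arrays did not separate, at 120 and 88.2 against 69.4 and 112. The other 5 members of the family, all SF3B subunits, had log2 changes from -0.25 to -0.02. Over the 12 genes 11 were lower at their brightest probe sets, with a median of -0.20, which was -0.18 after quantile normalization and -0.11 with median centring. For the 7 genes with several kept probe sets the mean of the others had a median of 0.02, with 3 lower.

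Among the snRNP proteins 10 of 11 tested were lower, with a median of -0.24, and the difference came mainly from shSOX11.3. Relative to control cells the family median was -0.08 with hairpin shSOX11.1 and -0.44 with shSOX11.3. SNRPB2, the U2 snRNP protein B″, was lower on both, at 6445 and 6205 in control cells, 5121 on shSOX11.1 and 4329 on shSOX11.3 (log2 change -0.43, SE 0.14, limma adjusted p = 0.503). Its second probe set was dim and went the other way (0.33). SNRPA1, its partner U2 A′, was at 4602 and 4950 against 4043 and 4058, and all 4 of its probe sets were lower, between -0.25 and -0.09. SNRPB, which encodes the core Sm proteins B and B′, was at 4179 and 4795 in control cells and 4455 on shSOX11.1, within their range, but at 2636 on shSOX11.3. Its other probe set was below both controls on both shSOX11 arrays, at 3037 and 3147 against 2845 and 2080 (-0.35, SE 0.17). SNRPF, another Sm ring protein, was low on shSOX11.3 alone, at 4253 and 4910 against 4334 and 3026 (log2 change -0.34, SE 0.19). SNRPA, the U1-specific A protein, was at 1246 and 1355 against 1289 and 895, again low on shSOX11.3 alone. SNRPD2 was at 11180 and 10744 against 11067 and 8349. The exception was SNRPD1, also of the Sm ring, at 5068 and 5555 against 5345 and 6577 (log2 change 0.16, SE 0.15). The 4 remaining members lay between -0.27 and -0.16. The family is bright, and genes over 5000 had a median of -0.28 on shSOX11.3, as given above.

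The hnRNPs held the widest range, from -1.03 to 0.90, with 16 of 21 lower and a median of -0.19 that was -0.03 when the probe sets of each gene were averaged. HNRNPLL, a regulator of CD45 exon choice in lymphocytes that also acts in plasma cells, was at 129 and 134 in control cells and 313 and 192 with SOX11 hairpins. Both shSOX11 arrays were above both controls, 1.87-fold in the mean, but they differ from each other, with log2 changes of 1.25 for shSOX11.1 and 0.55 for shSOX11.3. The log2 change of 0.90 (SE 0.25) had an unadjusted limma p of 0.00657 and an adjusted p of 0.408. All 3 of its kept probe sets were higher, at 0.90, 0.74 and 0.52. HNRNPUL1, an SAF-A-like protein with roles in RNA processing and the DNA damage response, was lower, at 707 and 1237 in control cells and 581 and 360 with SOX11 hairpins. The groups do not overlap, but the shControl arrays are far apart, at 9.87 ± 0.57 on the log2 scale against 8.84 ± 0.49 (SD, n = 2 per group). This made a log2 change of -1.03 (SE 0.30, limma adjusted p = 0.442), and the second probe set was at -0.74, with 137 and 169 against 109 and 76.4.

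The other hnRNPs showed smaller differences. HNRNPF, a G-tract binding regulator, was at 573 and 590 in control cells and 668 and 834 with SOX11 hairpins (log2 change 0.36, SE 0.17, limma adjusted p = 0.596). HNRNPA0 was at 3077 and 3229 against 2878 and 1983 (-0.40, SE 0.19), and its 3 probe sets were alike, between -0.41 and -0.30. HNRNPU, a scaffold attachment factor, was at 7313 and 8307 against 6680 and 6124 at its brightest probe set (-0.29, SE 0.14), while 3 of its 5 probe sets were higher. HNRNPK, which binds C-rich RNA, was close to level at 6002 and 6092 against 6562 and 6299 (0.09, SE 0.13). HNRNPA2B1 was at 11230 and 12575 against 12150 and 10435, where the groups overlap, and its log2 change of -0.08 (SE 0.14) turned to 0.08 after quantile normalization and 0.01 with median centring. HNRNPA1, a common antagonist of SR proteins, was at 6228 and 6196 against 5602 and 4983 at its brightest probe set (-0.23, SE 0.13), whose _x_at suffix marks probes that may also bind other transcripts. Another HNRNPA1 probe set was at 1600 and 1707 against 960 and 968, a log2 change of -0.78 (SE 0.15) with close agreement within each group. The pseudogene HNRNPA3P1 was near the threshold, at 24.4 and 43.4 against 11.4 and 37.4, and its arrays did not separate. The 9 hnRNP members not named in this account with values of their own lay between -0.25 and 0.04.

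SR proteins were close to level at their brightest probe sets, with 6 of 9 lower and a median of -0.04 that was 0.05 with median centring and -0.004 after quantile normalization. SRSF6 was lower, at 2832 and 2622 in control cells and 2257 and 2084 with SOX11 hairpins (log2 change -0.33, SE 0.14, unadjusted limma p of 0.0437, adjusted p of 0.585). SRSF7 was at 7149 and 6868 against 6048 and 5688 (-0.26, SE 0.13, limma adjusted p = 0.615), and its 4 probe sets were all lower. SRSF1, the founding SR protein, was at 6784 and 6857 against 6330 and 6154 (-0.13, SE 0.13). SRSF3 was at 7551 and 7177 against 7112 and 7242, and its log2 change of -0.04 (SE 0.13) turned to 0.07 after quantile normalization and 0.05 with median centring. SRSF10, a splicing repressor when dephosphorylated, was at 2227 and 2202 against 2370 and 2295 (0.07, SE 0.13). SRSF4 (log2 change 0.01, SE 0.14, and -0.01 after quantile normalization), SRSF5 (0.04, SE 0.19) and SRSF8 (-0.15, SE 0.19) had arrays that overlapped between the groups.

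Among the PRP factors 6 of 10 tested were lower and 4 higher, and with median centring 3 were lower and 7 higher. PRPF19, the ubiquitin ligase at the core of the Prp19 complex, was lower on both arrays by like amounts, at 896 and 860 in control cells and 640 and 617 with SOX11 hairpins. Its log2 change was -0.48 (SE 0.15, unadjusted limma p of 0.0106, adjusted p of 0.459). PRPF39, a U1 snRNP-associated factor, was higher, at 499 and 509 against 687 and 846, 1.51-fold in the mean (log2 change 0.60, SE 0.17, unadjusted limma p of 0.00642, adjusted p of 0.408). Each had a single probe set. PRPF8, the protein at the catalytic centre, was at 1344 and 1474 against 1621 and 1185, so its shSOX11 arrays lay on opposite sides of the controls, and the log2 change of -0.02 (SE 0.18) turned to 0.06 with median centring. PRPF4 (-0.18, SE 0.14) and PRPF31 (-0.16, SE 0.14), both of the U4/U6 snRNP, were slightly lower at their brightest probe sets. Their other kept probe sets were higher without overlap, at 0.34 for PRPF4 and 0.40 for PRPF31. PRPF18 (0.14, SE 0.16) was slightly higher, and PRPF6 (0.07, SE 0.21) overlapped. The 3 others lay between -0.08 and 0.02.

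**Figure D3:**
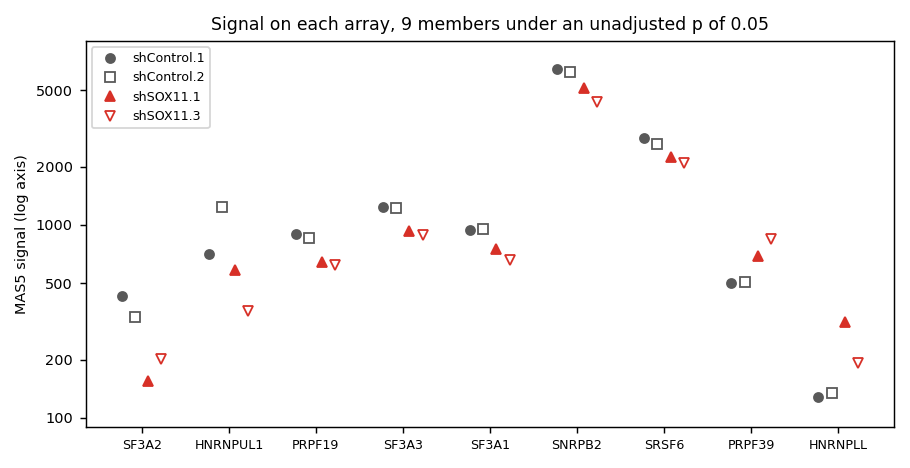
MAS5 signal on each of the 4 arrays, on a log axis, for the 9 members under an unadjusted limma p of 0.05, ordered by log2 change. In SF3A2, PRPF19, SF3A3 and SF3A1 both shSOX11 arrays lie together below the controls, the shControl arrays of HNRNPUL1 are spread from 707 to 1237, and PRPF39 and HNRNPLL are the 2 genes above their controls.

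Promoters are given for the members with the smallest p that the RefSeq table holds, SF3A2 and HNRNPUL1 on the lower side and HNRNPLL on the higher side, and for SRSF6, whose probe sets went opposite ways. Each is the 250 bases before the most upstream start site in RefSeq (GRCh38.p14), 5′ to 3′ on the gene's strand. The table holds 3 start sites for HNRNPUL1 and 1 for each of the others. Capitals mark the letters ACAAAG or ACAATG, cores that SOX proteins bind, searched on both strands (CTTTGT and CATTGT on the other strand).
SF3A2, chr19:2236574-2236823, plus strand: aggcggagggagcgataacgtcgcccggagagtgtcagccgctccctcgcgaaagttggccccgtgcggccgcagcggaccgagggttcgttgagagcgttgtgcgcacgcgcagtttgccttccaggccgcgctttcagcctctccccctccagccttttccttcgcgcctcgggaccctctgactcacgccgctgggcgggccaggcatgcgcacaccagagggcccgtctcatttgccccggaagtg
HNRNPUL1, chr19:41262307-41262556, plus strand: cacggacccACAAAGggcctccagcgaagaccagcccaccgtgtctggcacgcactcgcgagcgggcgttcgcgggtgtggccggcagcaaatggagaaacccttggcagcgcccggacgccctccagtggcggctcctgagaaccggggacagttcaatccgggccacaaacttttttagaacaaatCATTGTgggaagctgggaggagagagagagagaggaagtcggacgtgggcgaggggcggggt
HNRNPLL, chr2:38602929-38603178, minus strand: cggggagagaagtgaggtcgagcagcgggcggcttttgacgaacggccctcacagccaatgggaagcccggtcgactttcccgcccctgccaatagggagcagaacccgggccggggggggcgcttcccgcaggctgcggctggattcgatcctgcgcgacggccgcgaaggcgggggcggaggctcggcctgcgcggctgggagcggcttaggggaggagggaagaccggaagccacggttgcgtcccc
SRSF6, chr20:43457646-43457895, plus strand: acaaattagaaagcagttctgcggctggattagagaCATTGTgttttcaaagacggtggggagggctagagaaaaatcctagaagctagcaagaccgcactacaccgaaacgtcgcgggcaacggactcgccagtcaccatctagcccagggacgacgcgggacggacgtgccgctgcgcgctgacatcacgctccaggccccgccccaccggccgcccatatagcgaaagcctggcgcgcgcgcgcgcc
HNRNPUL1 has 2 such matches in this window, from -241 to -236 and from -62 to -57 relative to the start, SRSF6 has 1, from -214 to -209, and the windows of SF3A2 and HNRNPLL hold neither set of letters. Among the 61 members with an entry there, 15 (24.6%) have a match at any start site, against 24.9% of all 27305 genes in it. A match is a stretch of letters and not a measured binding site.

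Different probe sets of a member often went in different directions. Of the 44 members with at least 2 kept probe sets 18 had all of them on the same side of 0 (40.9%), against 48.4% of 5816 genes. Of the 216 pairs of probe sets of the same member 58.8% shared a sign (exact binomial interval 51.9% to 65.4%, with pairs of a gene not independent), beside 60.3% over all genes. The brightest probe set had a lower log2 change than the mean of the others in 34 of 44 members (77.3%), against 57.1% of all genes. Over these 44 members the median was -0.13 at the brightest probe set and 0.03 for the mean of the others, while over all genes with several probe sets it was -0.04 and 0.03. With the brightest probe set of every gene left out, 21 of 44 members were lower and 23 higher, with a median of 0.04. The lower median of these 44 members was therefore not seen at their dimmer probe sets. The 5 snRNP proteins among them were an exception, with a median of -0.16 for the mean of the others and 4 lower. With the probe sets of each gene averaged, 10 of 11 snRNP proteins and 10 of 12 U2 snRNP factors were lower. The counts were 11 of 21 hnRNPs, 4 of 10 PRP factors and 3 of 9 SR proteins.

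SRSF1 had 4 of 8 probe sets higher and 4 lower, from -0.57 to 1.11. The probe set at 463 and 552 in control cells was at 812 and 1343 with SOX11 hairpins, a log2 change of 1.05 (SE 0.24, unadjusted limma p of 0.00204 among all kept probe sets). Like the one at 1.11, it is an _x_at probe set, whose probes may also bind other transcripts. Another, without that suffix, was at 1249 and 1253 against 1555 and 1786 (0.41, SE 0.15), while the brightest was at -0.13. SRSF6 had the brighter probe set lower, as given above, and the other higher, at 536 and 547 against 646 and 827 (0.43, SE 0.18), with no overlap between the groups in either. HNRNPH1, a regulator that binds G-rich RNA, was at 8084 and 10761 against 8095 and 8412 at its brightest probe set (-0.18, SE 0.16), but at 355 and 354 against 538 and 1105 at another (1.12, SE 0.30, unadjusted limma p of 0.00475). HNRNPR had its brightest at -0.19 and another at 501 and 640 against 721 and 904 (0.51, SE 0.19). HNRNPU had its brightest, an _x_at probe set, at -0.29. Brighter ones among its other probe sets were at 0.16 and, with 400 and 361 against 410 and 520, at 0.28 without overlap, and another was at -0.03. It reached 1.95 at a probe set with signals of 1.69 and 31.6 against 18.7 and 42.7. Most of that signal was near or under the threshold, which makes the value uncertain (SE 1.4). SRSF3 went the other way, with a dim probe set at 159 and 97.6 against 54.1 and 78.4 (-0.94, SE 0.32) beside 0.20 at another. By contrast HNRNPC (6 of 6 lower, from -0.31 to -0.03), SNRPA1 and SRSF7 were uniform. The probe sets of SRSF1 and HNRNPH1 with a log2 change above 1, 2 in each gene, had their highest signal on shSOX11.3.

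**Figure D4:**
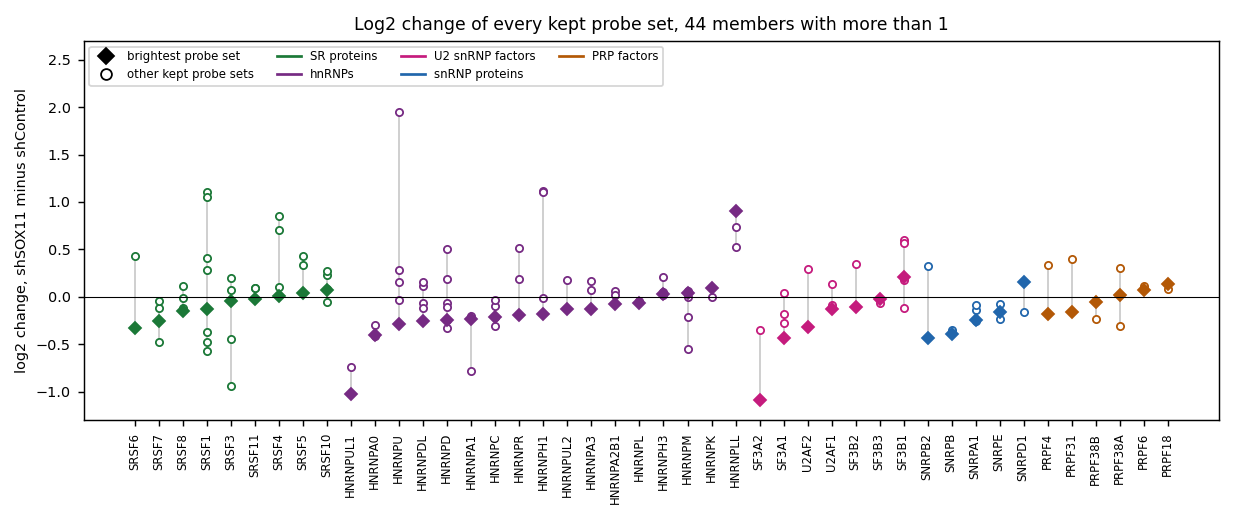
Log2 change of every kept probe set of the 44 members that have at least 2, with the brightest as a filled diamond and the others as open circles, grouped by family and ordered by the brightest. The open circles of SRSF1, HNRNPH1, SRSF6 and SRSF4 reach above 0 over a diamond at 0.01 or lower, while HNRNPLL, HNRNPUL1 and HNRNPA0 keep all probe sets on the same side.

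The 4 members under the signal filter were SRSF12, PRPF40B, SNRPN and SNRPF-DT. Their brightest probe sets gave at most 26.1 on any array, as in SNRPN at 11.8 and 26.1 in control cells and 10.9 and 14.1 with SOX11 hairpins, which is at most just over the threshold of 24.8. SRSF12 was at 2.95 and 17.4 against 2.79 and 1.91, PRPF40B at 4.37 and 22.1 against 25.1 and 7.02, and SNRPF-DT at 24.1 and 9.46 against 4.02 and 16.9.

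Other genes of the splicing machinery were counted in the same way, from lists of 103 genes in 8 groups, 96 of which were tested. Of these 62 were lower and 34 higher (64.6% lower), with a median of -0.06, equal to that of all genes. Under an unadjusted limma p of 0.05 there were 7, all lower (7.29%, against 8.38% of all genes), and 0 passed the adjusted threshold. The RNA-binding protein KHDRBS1 (SAM68) was at 5825 and 5507 in control cells and 3387 and 3938 with SOX11 hairpins, clearly apart, with a log2 change of -0.63 (SE 0.14, unadjusted limma p of 0.00183, adjusted p of 0.341). RALY, an hnRNP C relative, was at 860 and 1032 against 829 and 498 (-0.55, SE 0.24). Among other regulators MBNL1 (0.28, SE 0.15) and TIA1 (0.26, SE 0.16) were higher on both shSOX11 arrays than on both controls, and 10 of the 21 were higher.

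Partners of the U2 snRNP included 7 lower genes of 10, with a median of -0.24. PHF5A, which sits in SF3B beside SF3B1, was at 2028 and 2121 in control cells and 1688 and 1261 with SOX11 hairpins (log2 change -0.51, SE 0.17, limma adjusted p = 0.508), and PUF60 was at 989 and 1014 against 802 and 760 (-0.36, SE 0.14, limma adjusted p = 0.562). U2SURP was higher, at 2171 and 2235 against 2618 and 2740 (0.28, SE 0.13), and RBM5 was at 0.12 (SE 0.16). All 5 tested genes of the exon junction complex, which marks spliced junctions, had a log2 change under 0, with a median of -0.35. Of these MAGOHB was level at -0.01, with arrays that overlapped (591 and 993 against 509 and 1147). Under an unadjusted limma p of 0.05 there were 3 of the 5, all lower (60%, against 8.38% of all genes, 4.98% lower). RBM8A was at 3284 and 3112 against 2559 and 2465 (-0.35, SE 0.13), and RNPS1 was at 3393 and 3562 against 2889 and 2570 (-0.35, SE 0.14). The third, ACIN1, named after its value was seen, was at 471 and 504 against 421 and 279 (-0.51, SE 0.21). In limma their adjusted p was 0.546, 0.554 and 0.587.

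SR-related proteins and SR kinases were balanced, with 7 of 15 lower and a median of 0. The kinases CLK4, at 358 and 327 in control cells and 432 and 445 with SOX11 hairpins (log2 change 0.36, SE 0.16), and CLK1 (0.29, SE 0.17) were higher without overlap, while TRA2B (-0.20, SE 0.14) and SRRM2 (-0.22, SE 0.16) were lower in the mean. In the U1, U5 and tri-snRNP group 9 of 12 were lower (median -0.12), with SNRNP70 at -0.32 (SE 0.18), PPIH at -0.24 (SE 0.15), USP39 at 0.12 (SE 0.17) and SNRNP40 at 0.01 (SE 0.15). In the LSM ring 6 of 8 were lower (median -0.15), with LSM7 at -0.31 (SE 0.19), LSM1 at -0.21 (SE 0.14), LSM8 at 0.10 (SE 0.14) and LSM4 at 0.0049 (SE 0.16). In the Prp19 and helicase group 10 of 17 were lower (median -0.06), with DDX41 at -0.30 (SE 0.16), BUD31 at -0.25 (SE 0.14), CDC5L at 0.20 (SE 0.16) and AQR at 0.16 (SE 0.15). In the minor spliceosome 7 of 8 were lower (median -0.09), with SNRNP25 at -0.24 (SE 0.15), SNRNP48 at -0.21 (SE 0.17) and the dim SNRNP35 at 0.52 (SE 0.32). None of these groups had a gene under an unadjusted limma p of 0.05, and their smallest adjusted p was 0.591.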

How the data were processed

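Total RNA of 4 samples was measured on 1-colour arrays, grouped by the sample titles. The authors deposited a linear signal intensity for each probe set. The submitters' processing notes name MAS5 and Affymetrix Expression Console, with versions not given in the sources used. The trimmed means were equal on all arrays, so signals were taken to log2 without further scaling. MAS5 subtracts mismatch signals, which makes dim probe sets noisy.

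Probe sets were named from the platform annotation. The 67 members all matched the RefSeq gene table, used for names, and 0 symbols needed an update. Probe sets entered the tests if they exceeded 24.8, which is the overall median, on 2 or more arrays. This left 22488 probe sets with a single symbol, 165 of them of members, and 11938 genes. For each member the brightest kept probe set was also its brightest overall. Group differences came from limma 3.58.1 under R 4.3.3 (lmFit, eBayes with an intensity trend, two-sided, Benjamini-Hochberg over all genes; 2 residual degrees of freedom, 8.39 after moderation), tested on simulated data first. With 2 arrays in each group an exact permutation test has a smallest two-sided p of 0.333.

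Members under an unadjusted p of 0.05 or 1.5-fold apart, the 3 smallest p per direction and family, the brightest and dimmest of each family, members under the filter and a fixed set (such as SRSF1, HNRNPA1, SF3B1 and PRPF8) were named, with up to 2 genes per direction of each other group. HNRNPC, HNRNPH1, HNRNPR and SNRPB were added after their values were seen. Members and lists were chosen with earlier results of these data known. Also tried were a pseudocount of 32, median centring, quantile normalization, no filter or one at percentile 35 or 65, the mean of probe sets, no _x_at probe sets, limma without trend or robust, and leaving out each array.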

Additional observations from a re-analysis of the deposited data

How the results depend on the processing

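No paired analysis was possible, because the groups share no construct and have only the number 1 of their labels in common. With all 4 arrays, the count of genes past limma's adjusted 0.05 was 0 under each normalization, filter, pseudocount, probe set rule and variance model listed above, and at a threshold of 0.10. The same holds without either shControl array, but it was 953 without shSOX11.1 and 211 without shSOX11.3, where the lone array is assumed to vary like the control pair (median absolute log2 difference 0.175, against 0.297 between the shSOX11 arrays). The 9 members under an unadjusted 0.05 (8.38% of all genes) became 5 without the intensity trend (7.46%) and 2 to 34 with 1 array left out. There were 34 without shSOX11.1 (24.9% of all genes), 14 without shSOX11.3 (15.4%), 3 without shControl.1 (2.84%) and 2 without shControl.2 (3.05%). The 1 member 1.5-fold apart (2.69% of all genes) became 2 with median centring (HNRNPLL and SF3A2) and 2 without _x_at probe sets (HNRNPA1 and SF3A2). It became 0 with the mean of probe sets, 0 at a 2-fold limit, and 1 to 5 with 1 array left out. For this rule the share of all genes is given for the main setting only.

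The members' median of -0.17 (all genes -0.06) moved to -0.10 with quantile normalization (all genes -0.05), -0.08 with median centring (0.02), -0.05 with the mean of probe sets (-0.04, with 60.3% of members and 55% of all genes lower), and between -0.19 and -0.08 with 1 array left out (all genes -0.10 to 0). Leaving out each gene's brightest probe set was an alternative chosen after seeing the data, with 44 members tested. It gave a median of 0.04 (all genes 0.01) and 1 gene of all past the adjusted 0.05. Under an unadjusted 0.05 there were 5 of the 44 members, 2 of them among the 9, beside 9.56% of all genes. The share of probe set pairs with a common sign lay within its interval under every alternative run.

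For single genes, 539 of 559 log2 changes kept their direction under the settings with all 4 arrays (20 turned), and 0 passed limma's adjusted 0.05. With 1 array left out, 237 of 280 kept their direction and their side of the threshold, 18 turned and 25 passed it (SF3A2 and KHDRBS1 without shSOX11.1 and without shSOX11.3, HNRNPLL without shSOX11.3, the rest without shSOX11.1). The mean of probe sets turned SRSF6 to 0.05, HNRNPU to 0.41, PRPF4 to 0.08, PRPF31 to 0.12, SRSF1 to 0.16, HNRNPA2B1 to 0.00056, HNRNPH1 to 0.51, HNRNPR to 0.17, SNRNP48 to 0.04, LSM4 to -0.03 and AQR to -0.0012. HNRNPU was at 0.16 without _x_at probe sets. Median centring turned HNRNPA2B1 to 0.01, PRPF8 to 0.06 and SRSF3 to 0.05, and quantile normalization turned HNRNPA2B1 to 0.08, SRSF3 to 0.07, SRSF4 to -0.01, SNRNP40 to -0.003 and LSM4 to -0.01. With 1 array left out the sign changed within these ranges: HNRNPA2B1 from -0.19 to 0.03, HNRNPA3P1 from -1.51 to 0.20, HNRNPH1 from -0.38 to 0.03, LSM4 from -0.16 to 0.17, PRPF6 from -0.22 to 0.36, PRPF8 from -0.25 to 0.20, SNRNP40 from -0.06 to 0.07, SNRPD2 from -0.39 to 0.01, SRSF4 from -0.04 to 0.06, SRSF5 from -0.20 to 0.29, SRSF8 from -0.37 to 0.08 and U2AF1L4 from -0.57 to 0.12. The causes of these changes were not tested. With 2 arrays a group, differences of the size seen in most members lie within the error.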
